A study of Mus musculus with 28 samples.

Results

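Mouse embryonic fibroblasts make the matrix they sit in and also the enzymes that take it apart. The 10 genes described here cover both sides of that balance: the matrix metalloproteinases Mmp2, Mmp3, Mmp13 and Mmp14, the tissue inhibitors of metalloproteinases Timp1, Timp2 and Timp3, the collagen crosslinking enzyme Lox, the matricellular protein Postn (periostin) and the adhesive glycoprotein Fn1 (fibronectin). They were taken as every probe set whose only gene symbol was one of these names, which gave 20 probe sets of 45037 tested, and 10 genes of 17097. Timp2 was read by 5 probe sets, Timp3 by 4, Lox by 3, Mmp14 by 2 and each of the other genes by 1. Where a gene had several, the one with the highest mean over the 28 arrays is called its lead probe set, and values are from lead probe sets unless stated.

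The cells were primary fibroblasts (MEFs) of 13.5-day embryos at passage 2, from mice lacking p53, from mice lacking p66 (p66Shc, the largest protein of the Shc1 gene) and from WT mice. p53-/- cells gave 4 arrays labelled H2O2 and 4 labelled untreated. p66-/- cells gave 4 arrays after 400 μM H2O2, 2 after 0.25 μg/ml of doxorubicin (Doxo), a DNA-damaging drug, and 4 of untreated cells, and WT cells gave the same numbers. The exposures lasted 4 h. The labels name the strain C57Bl/6 for all cells, whereas the study's methods name another background strain. Both deletions are present from conception in every cell, and the replicates are described as independent preparations of cells. Each value is a log2 signal after RMA, a normalization that brings the arrays to a common distribution, so that a difference of 1 is a doubling of signal, and levels of different probe sets cannot be set against each other.

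Metalloproteinases are made as inactive proenzymes. Mmp14 sits in the cell membrane and, with Timp2 as an adaptor, activates secreted pro-Mmp2, a gelatinase. Mmp3 (stromelysin) and Mmp13 (a collagenase) are secreted, and their genes are known targets of AP-1 factors in stressed or stimulated fibroblasts. The Timps bind the active enzymes, Timp1 and Timp2 in solution and Timp3 bound to the matrix. Lox oxidizes lysines of collagen and elastin so that the fibres can crosslink, and periostin and fibronectin bind collagen and cell surface integrins.

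The arrays differed in ways that the groups do not show. The lys labelling control read 4.99 to 6.06 on the 12 arrays of replicates 1 and 2, 3.24 to 4.04 on the 12 arrays of replicates 3 and 4, and 4.04 to 4.41 on the 4 Doxo arrays, and the bioB hybridization control read 7.86 to 8.14 on the Doxo arrays against 6.48 to 7.64 on the others. The Doxo arrays therefore form a set of their own, and Doxo and array set cannot be told apart. The treatment labels of the p53-/- arrays ran against 2 genes that were higher after H2O2 in WT cells: Atf3, a stress-induced AP-1 family factor, read 5.57 to 6.30 on p53-/- arrays labelled H2O2 and 8.54 to 9.39 on those labelled untreated, against 8.30 to 9.13 and 5.62 to 5.99 in WT cells with the same 2 labels, and Gadd45a did the same. The p53-/- groups are therefore named "labelled", and results are given as labelled and with the 2 labels exchanged. The level of the p53 gene itself is not analysed here. Cdkn1a, a p53 target, averaged 6.64 and 7.65 on the p53-/- arrays labelled H2O2 and untreated, against 11.76 and 10.49 in WT cells. The Shc1 probe set did not check the p66 deletion, since the shorter Shc proteins share most of the message. The fibroblast markers Col3a1 and Vim averaged 12.29 and 12.95 over all arrays, and 7 endothelial markers averaged 3.75 to 4.13 per array, below the array medians of 4.35 to 4.46. Macrophage markers were present and uneven, and are given with the members they move with. Epithelial, muscle and endothelial markers were higher on the Doxo arrays than on untreated arrays of the same genotype, with values beside the Doxo results.

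Promoter sequences are shown for 4 members, because Mmp3 and Mmp13 carry the AP-1 recognition letters next to their start sites, Postn changed most after Doxo and the Timp2 probe sets disagreed about it. The 100 bases before each start are from RefSeq (GRCm38.p6), in the direction of transcription, with capitals marking matches on either strand to 3 motifs. The AP-1 site was searched as TGANTCA. The TATA box, which places the transcription machinery, was searched as TATAAA. The GC box, bound by Sp1 factors, was searched as GGGCGG, and no match to one motif overlapped another in the sequences shown. Mmp3 lies at chr9:7445722-7445821, plus strand, Mmp13 at chr9:7272414-7272513, plus strand, Postn at chr3:54361007-54361106, plus strand, and Timp2 at chr11:118355412-118355511, minus strand.
Mmp3: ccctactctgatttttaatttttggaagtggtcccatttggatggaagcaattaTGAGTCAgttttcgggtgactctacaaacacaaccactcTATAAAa
Mmp13: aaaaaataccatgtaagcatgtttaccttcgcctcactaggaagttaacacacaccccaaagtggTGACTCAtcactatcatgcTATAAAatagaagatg
Postn: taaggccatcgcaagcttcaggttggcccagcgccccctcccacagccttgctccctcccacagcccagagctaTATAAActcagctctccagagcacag
Timp2: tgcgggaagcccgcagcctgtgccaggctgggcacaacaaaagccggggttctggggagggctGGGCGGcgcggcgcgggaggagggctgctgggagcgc
The AP-1 letters begin 46 bases before the Mmp3 start and 35 before the Mmp13 start. Promoter windows were matched for 7 members, and among these only the Mmp3 and Mmp13 windows held the AP-1 letters, which 7.81% of all 32851 RefSeq windows of 300 bases hold. The TATA box letters were in those windows and in 1 of 2 Postn windows (13.6% of all), and the GC box letters in those of Mmp14, Timp1, Timp2 and Timp3 (35.7% of all). A match is a string of letters in the window and no measure of binding.

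**Figure D1:**
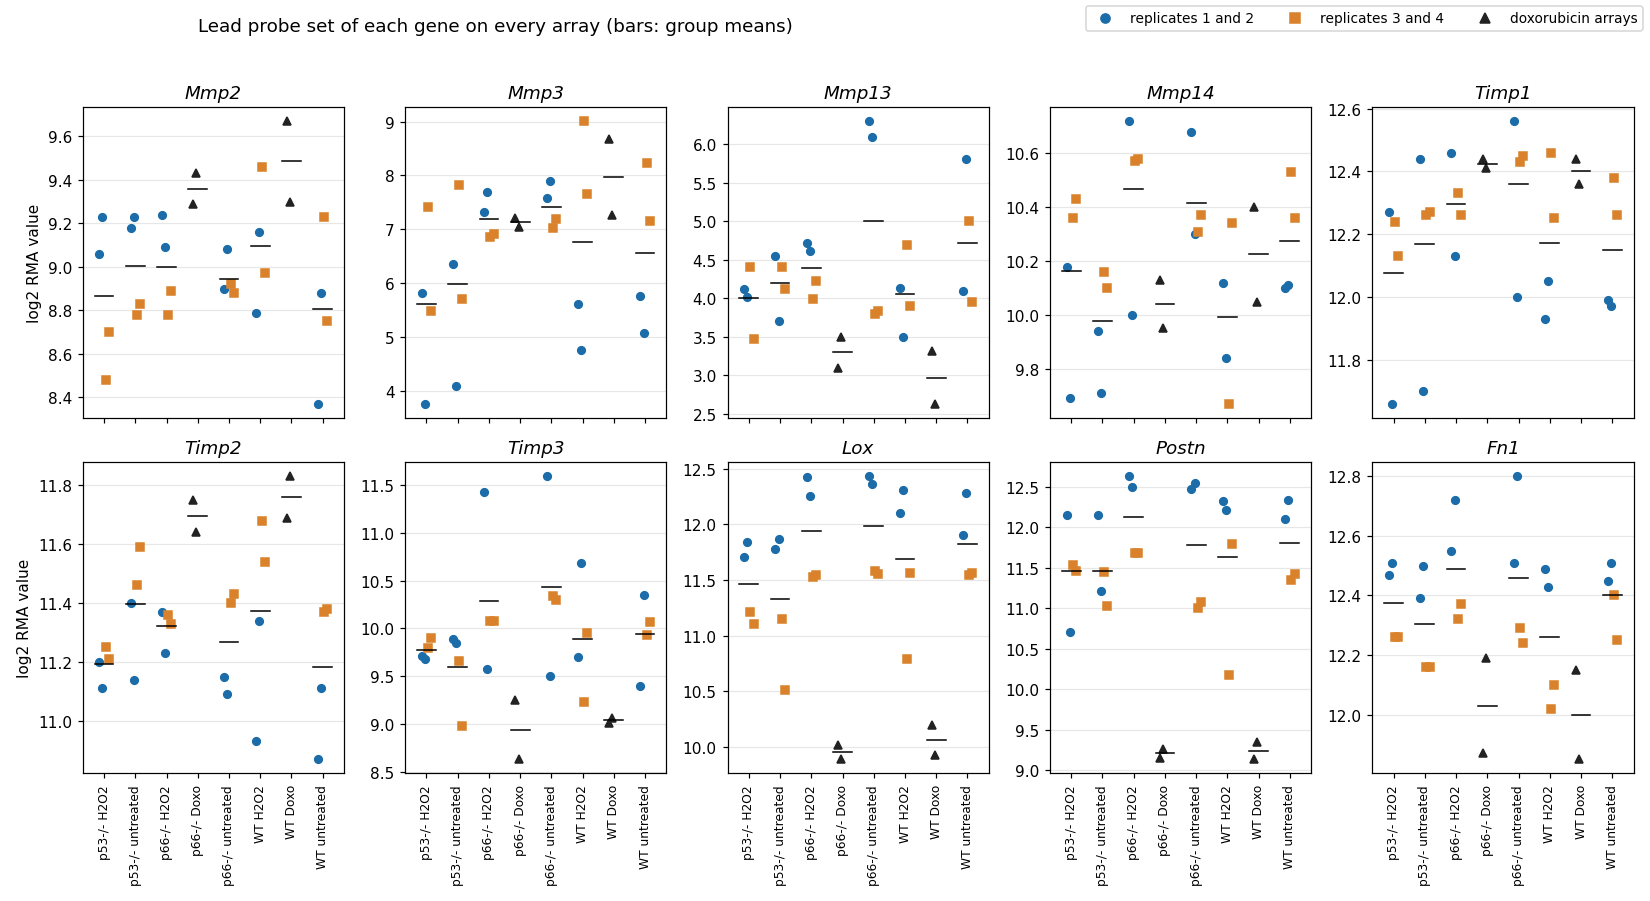
Log2 RMA value (vertical axis, scaled for each gene) of the lead probe set of 10 genes on 28 arrays in 8 groups (horizontal axis). Points are arrays, colours and shapes mark replicates 1 and 2, replicates 3 and 4 and the Doxo arrays, and bars are group means; the Doxo arrays lie below all 24 others for Lox (9.89 to 10.20) and Postn (9.14 to 9.35).

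The first question was whether oxidative stress changed the expression of these genes, and whether p53 or p66 was needed for it. None of the 10 genes, at any of their 20 probe sets, passed the threshold after H2O2 in p53-/-, p66-/- or WT cells (limma, Benjamini-Hochberg adjusted p under 0.05 over all 45037 probe sets), and none had an unadjusted p under 0.05. The share of all probe sets that passed was 4.56% in p53-/- cells, 0.0178% in p66-/- cells and 3.66% in WT cells. With shares this low, a count of 0 among 10 genes lies near the background. An unadjusted p under 0.05 was reached by 7732, 1988 and 5571 probe sets in the same 3 comparisons. Exchanging the p53-/- labels turns the sign of each difference and leaves the count at 0. A block for the replicate number in the fit, shared by all genotypes, left the count at 0 too. Such a block does not pair arrays within a genotype. The medians of the 10 differences were -0.04, -0.01 and -0.09 in p53-/-, p66-/- and WT cells, beside -0.042, -0.011 and 0.016 over all probe sets.

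Mmp2 showed how small the differences were. It read 8.79, 9.16, 9.46 and 8.97 on WT H2O2 arrays 1 to 4, and 8.37, 8.88, 9.23 and 8.75 on the untreated WT arrays of the same numbers. Each pair was higher after H2O2, by 0.22 to 0.42, while the groups overlapped and the untreated arrays alone spanned 0.86 (difference 0.29, 95% interval -0.08 to 0.66, adjusted p = 0.62). In p66-/- cells the pairs of Mmp2 differed by -0.14 to 0.34, and in p53-/- cells as labelled all 4 were lower, between -0.30 and -0.00.

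Mmp3 and Mmp13, the 2 genes with the AP-1 letters, had no called change in any genotype. Mmp3 was lower in each of the 4 pairs of p66-/- cells by 0.18 to 0.27, and in each labelled pair of p53-/- cells by 0.22 to 0.54, whereas in WT cells 2 pairs were higher and 2 lower (-0.33 to 0.78). The intervals were wide, -2.01 to 1.55 in p66-/- cells and -1.58 to 1.98 in WT cells, since limma took 1 spread for all groups (SE 0.86), set largely by the p53-/- and WT arrays. A block for the replicate number did not bring Mmp3 past the threshold (adjusted p = 0.78, 0.99 and 0.95 in p53-/-, p66-/- and WT cells). That block is shared by all genotypes, whereas Mmp3 differed between replicates in unlike ways in each, so the fit does not test the pairs within a genotype. Mmp13 differed by -0.62 in p66-/- cells and -0.66 in WT cells. In p66-/- cells that difference came from replicates 1 and 2, at 4.72 and 4.62 after H2O2 against 6.30 and 6.09 untreated, while replicates 3 and 4 read 3.99 and 4.22 against 3.79 and 3.84. In WT cells it came from replicate 2 (3.50 after H2O2 against 5.81 untreated).

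Timp1 changed least. Its 12 pairs lay between -0.19 and 0.13, and its 95% intervals, -0.42 to 0.24 in p53-/- cells as labelled, -0.40 to 0.27 in p66-/- cells and -0.31 to 0.36 in WT cells, leave out a 1.5-fold change in any of them. The same pairs lay between -0.38 and 0.13 for Fn1. For Timp2 all 4 WT pairs were higher, by 0.06 to 0.31, and all 4 p53-/- pairs as labelled were lower, by 0.03 to 0.38. The difference between these 2 responses, -0.39 (95% interval -0.78 to 0.00), had an adjusted p of 0.22. It passed in replicates 3 and 4 alone (-0.53, adjusted p = 0.023) and without replicate 1 of the WT H2O2 arrays (-0.54, adjusted p = 0.038). Read with the p53-/- labels exchanged, the same difference was 0.01 with an adjusted p of 1. No other member passed in a comparison of responses between p53-/- or p66-/- cells and WT cells, where 10.8% and 0.00222% of all probe sets passed, and no member had an unadjusted p under 0.05 in either.

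Among the WT H2O2 arrays, Lox and Postn were lowest on replicate 3. A Dixon check for outlying arrays (critical value 0.829) flagged 0 of 60 groups of 4 arrays. Lox read 12.10, 12.31, 10.79 and 11.56 on the WT H2O2 arrays, against 11.90, 12.28, 11.54 and 11.56 on untreated WT arrays. Postn read 12.33, 12.22, 10.18 and 11.79 after H2O2, against 12.11, 12.34, 11.35 and 11.43. Replicate 3 was thus lower after H2O2 by 0.76 for Lox and 1.17 for Postn, and it was also the array with the highest Mmp3 (9.01) and the highest macrophage marker mean (6.32). The remaining WT pairs lay between -0.00 and 0.20 for Lox, and between -0.12 and 0.36 for Postn.

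**Figure D2:**
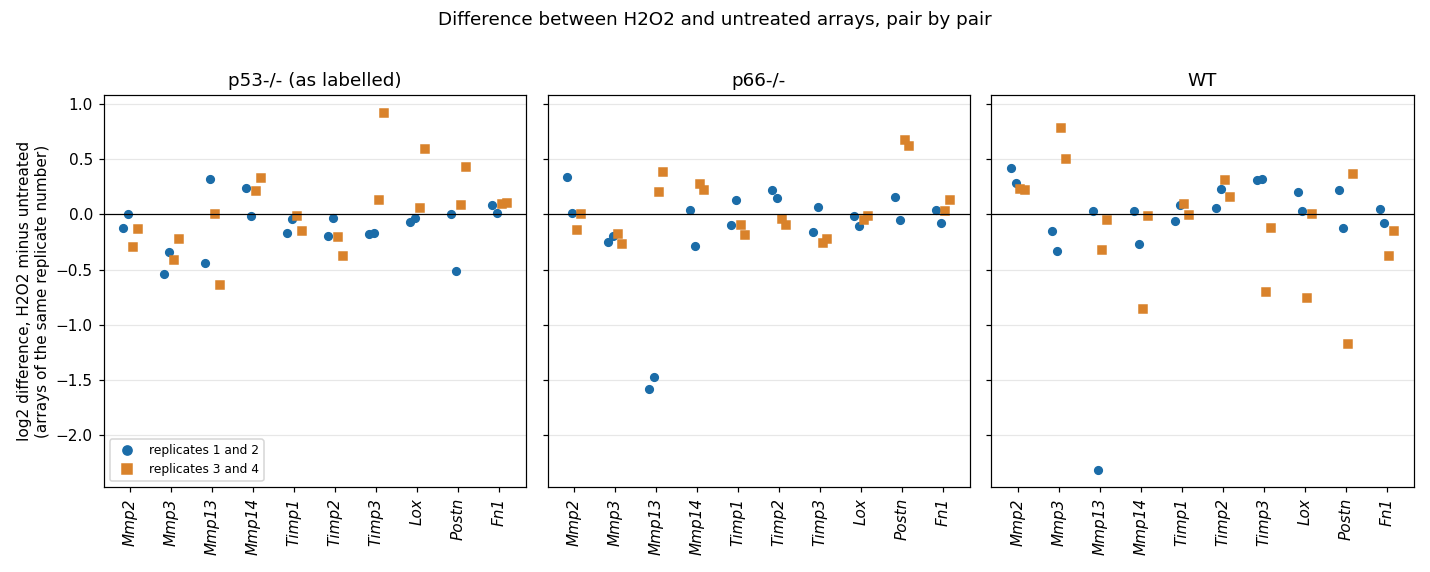
Log2 difference between the H2O2 and the untreated array of the same replicate number (vertical axis) for 10 genes (horizontal axis) in p53-/- cells as labelled, p66-/- cells and WT cells; 1 point per pair. Most points lie near 0, with Mmp13 in 2 p66-/- pairs (-1.58 and -1.47) and 1 WT pair (-2.31) furthest away.

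The second question was whether the response to Doxo differed from that to H2O2, and whether it needed p66. After Doxo, Postn and Lox fell in both genotypes, Mmp13 fell in both, Timp2 rose in both at its lead probe set, Timp3 and Fn1 fell in p66-/- cells and Mmp2 rose in WT cells. In p66-/- cells 1 gene rose and 5 fell, and in WT cells 2 rose and 3 fell (adjusted p under 0.05). Over all 17097 genes at lead probe sets, 32.6% rose and 16.5% fell in p66-/- cells, and 27% rose and 16.1% fell in WT cells. In all, 6 of 10 members passed in p66-/- cells where 49.2% of genes did, and 5 of 10 in WT cells where 43.1% did, so that the number of members that changed was close to the background. The median of the 10 differences was -0.40 in p66-/- cells and -0.23 in WT cells, beside 0.152 and 0.134 over all probe sets. Comparisons of 2 arrays with 4 cannot go below p = 0.067 in an exact permutation test, so the calls rest on the spread that limma estimates over all arrays. The mean of 7 epithelial markers was 5.79 to 5.83 on p66-/- Doxo arrays against 4.87 to 5.51 untreated, and 5.59 to 5.67 on WT Doxo arrays against 4.72 to 5.29 untreated. The mean of 7 muscle markers was 4.80 to 5.17 against 4.34 to 4.52 in p66-/- cells, and 4.86 to 5.05 against 4.34 to 4.74 in WT cells. Neither list mean overlapped between Doxo and untreated arrays. Nor did 58% of all single probe sets in p66-/- cells and 58.8% in WT cells. Krt19 averaged 8.36 against 7.05 untreated in p66-/- cells and 8.35 against 6.90 in WT cells. Des averaged 7.70 against 6.23 and 7.37 against 6.47 in the same genotypes. Of both lists, only Cldn4 (4.22 against 4.34) and Myf5 (2.34 against 2.39) were lower after Doxo, both in p66-/- cells. Cdh1 (2.91 and 2.84 on p66-/- and WT Doxo arrays) and Myf5 (2.34 and 2.38) stayed below the array medians. Endothelial markers averaged 4.04 against 3.83 untreated in p66-/- cells and 4.07 against 3.85 in WT cells. The part of these markers in the Doxo results was not tested. In these bulk samples, fewer cells of a kind and less RNA per cell cannot be told apart.

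Postn, which binds collagen and integrins, changed most. It read 9.15 and 9.27 on the p66-/- Doxo arrays, against 12.47, 12.55, 11.01 and 11.08 on untreated p66-/- arrays. In WT cells it read 9.14 and 9.35 after Doxo, against 12.11, 12.34, 11.35 and 11.43 untreated. All 4 Doxo arrays lay below every one of the 24 others (10.18 to 12.63), as did 9.47% of all probe sets. The difference was -2.57 in p66-/- cells (SE 0.53, adjusted p = 0.00078) and -2.56 in WT cells (SE 0.53, adjusted p = 0.00094), or 5.92-fold and 5.91-fold lower. The call held in both genotypes whichever single array was left out, with adjusted p of at most 0.013 and 0.015.

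Lox, the collagen crosslinker, fell in both genotypes. Its values were 10.02 and 9.89 on p66-/- Doxo arrays against 12.43, 12.36, 11.58 and 11.55 untreated, and 10.20 and 9.93 on WT Doxo arrays against 11.90, 12.28, 11.54 and 11.56 untreated. Here too the Doxo arrays lay below all 24 others (10.51 to 12.43). The difference was -2.03 in p66-/- cells (SE 0.40, adjusted p = 0.0005) and -1.76 in WT cells (SE 0.40, adjusted p = 0.0021), or 4.08-fold and 3.38-fold lower, and it passed whichever single array was left out. The second Lox probe set differed by -2.04 and -1.96 in p66-/- and WT cells, both past the threshold. The third read only 3.25 on average after Doxo against 4.08 untreated in p66-/- cells, where it passed (-0.82, adjusted p = 0.0065), and 3.48 against 3.96 in WT cells (-0.48, adjusted p = 0.1).

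Fn1 fell by 0.43 in p66-/- cells (SE 0.16, adjusted p = 0.039), with 11.87 and 12.19 on Doxo arrays against 12.51, 12.80, 12.29 and 12.24 untreated. In WT cells it differed by -0.40 (SE 0.16, adjusted p = 0.059), with 12.15 and 11.85 after Doxo against 12.45, 12.51, 12.40 and 12.25 untreated. The groups did not overlap in either genotype, which held for 58% of all probe sets in p66-/- cells and 58.8% in WT cells. Both differences were under 1.5-fold, and the p66-/- call was lost without untreated replicate 1 (-0.42, adjusted p = 0.071), untreated replicate 2 (-0.32, adjusted p = 0.12) or Doxo replicate 1 (-0.27, adjusted p = 0.33). Among the 10 fibroblast markers, whose mean was 9.08 and 9.09 on p66-/- Doxo arrays against 9.36 to 9.89 untreated, and 8.86 and 9.10 on WT Doxo arrays against 9.28 to 10.04 untreated, Prrx1 and Col1a2 differed most. Prrx1 averaged 7.27 on p66-/- Doxo arrays against 9.92 untreated, and 7.55 on WT Doxo arrays against 9.99. Col1a2 averaged 3.28 against 5.51 in p66-/- cells and 3.22 against 5.74 in WT cells. Its Doxo means lie below the array medians of 4.35 to 4.46, so its differences rest on weak signals. Thy1 was higher after Doxo, at 11.48 against 10.64 in p66-/- cells and 11.25 against 10.69 in WT cells. Col1a1 differed little, at 10.91 against 10.82 and 10.62 against 10.76 in the same genotypes. So did S100a4, at 12.45 against 12.32 and 12.29 against 12.36. These markers were chosen after their values were seen. The part of these marker differences in the falls of Lox, Postn and Fn1 was not tested.

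Among the proteases, Mmp13 was 3.10 and 3.50 on p66-/- Doxo arrays against 6.30, 6.09, 3.79 and 3.84 untreated, and 3.31 and 2.63 on WT Doxo arrays against 4.09, 5.81, 5.00 and 3.95 untreated. The differences were -1.71 and -1.74 (SE 0.59, adjusted p = 0.025 in each genotype). The Doxo values lie below the array medians of 4.35 to 4.46 and the untreated values on both sides of them, and the deposited table holds no call that says whether a probe set was above background, so the differences rest on weak signals. Leaving out untreated replicate 1 or 2 or either Doxo array ended the p66-/- call (-1.90 to -1.27, adjusted p = 0.077 to 0.15), and leaving out untreated replicate 2 or either Doxo array ended the WT call (-2.08 to -1.38, adjusted p = 0.051 to 0.22). Mmp2, the gelatinase, rose by 0.67 in WT cells (SE 0.22, adjusted p = 0.021), with 9.67 and 9.30 after Doxo against 8.37, 8.88, 9.23 and 8.75 untreated. The WT call was lost without untreated replicate 1 (0.53, adjusted p = 0.066) or Doxo replicate 1 (0.49, adjusted p = 0.2). In p66-/- cells Mmp2 differed by 0.41 (SE 0.22, adjusted p = 0.13), with 9.29 and 9.43 against 8.90, 9.08, 8.92 and 8.88.

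Mmp14, the membrane protease that activates pro-Mmp2, differed by -0.37 in p66-/- cells and -0.05 in WT cells at its lead probe set, and neither passed (adjusted p = 0.17 and 0.87). Its other probe set, read at 5.59 on p66-/- Doxo arrays against 6.43 untreated, differed by -0.84 there (adjusted p = 0.044), and by -0.39 in WT cells (adjusted p = 0.35). Mmp3 differed by -0.29 in p66-/- cells and by 1.41 in WT cells, with intervals of -2.47 to 1.89 and -0.77 to 3.59. Its 2 WT Doxo arrays read 8.67 and 7.27, the first above and the second inside the untreated range of 5.08 to 8.23.

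Of the inhibitors, Timp3 fell by 1.49 in p66-/- cells (SE 0.47, adjusted p = 0.015), with 9.25 and 8.63 on Doxo arrays against 11.59, 9.50, 10.34 and 10.30 untreated. Without the first of those untreated arrays the difference was -1.10 (adjusted p = 0.053), and without Doxo replicate 2 it was -1.18 (adjusted p = 0.16). In WT cells Timp3 differed by -0.90 (SE 0.47, adjusted p = 0.14), with 9.01 and 9.06 after Doxo against 9.40, 10.35, 9.93 and 10.07 untreated, and a second probe set passed there (-1.20, adjusted p = 0.046). All 4 Timp3 probe sets were lower in both genotypes, between -1.58 and -0.69 in p66-/- cells and between -1.20 and -0.23 in WT cells.

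Timp2 rose by 0.43 in p66-/- cells (SE 0.16, adjusted p = 0.041), with 11.75 and 11.64 against 11.15, 11.09, 11.40 and 11.43 untreated, and by 0.58 in WT cells (SE 0.16, adjusted p = 0.0097), with 11.69 and 11.83 against 10.87, 11.11, 11.37 and 11.38. The other 4 Timp2 probe sets did not pass. They differed by -1.08 to -0.07 in p66-/- cells and by -0.23 to 0.39 in WT cells, so that in p66-/- cells all 4 ran opposite to the lead. The mean of the 5 probe sets differed by -0.26 in p66-/- cells (adjusted p = 0.36) and by 0.24 in WT cells (adjusted p = 0.41), and a direction for Timp2 as a gene is not settled by these arrays. The p66-/- call at the lead was also lost without untreated replicate 1 or 2 or either Doxo array (0.37 to 0.48, adjusted p = 0.091 to 0.2), and the WT call without Doxo replicate 2 (0.51, adjusted p = 0.11). Timp1 differed by 0.06 and 0.25, with adjusted p = 0.81 and 0.33.

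**Figure D3:**
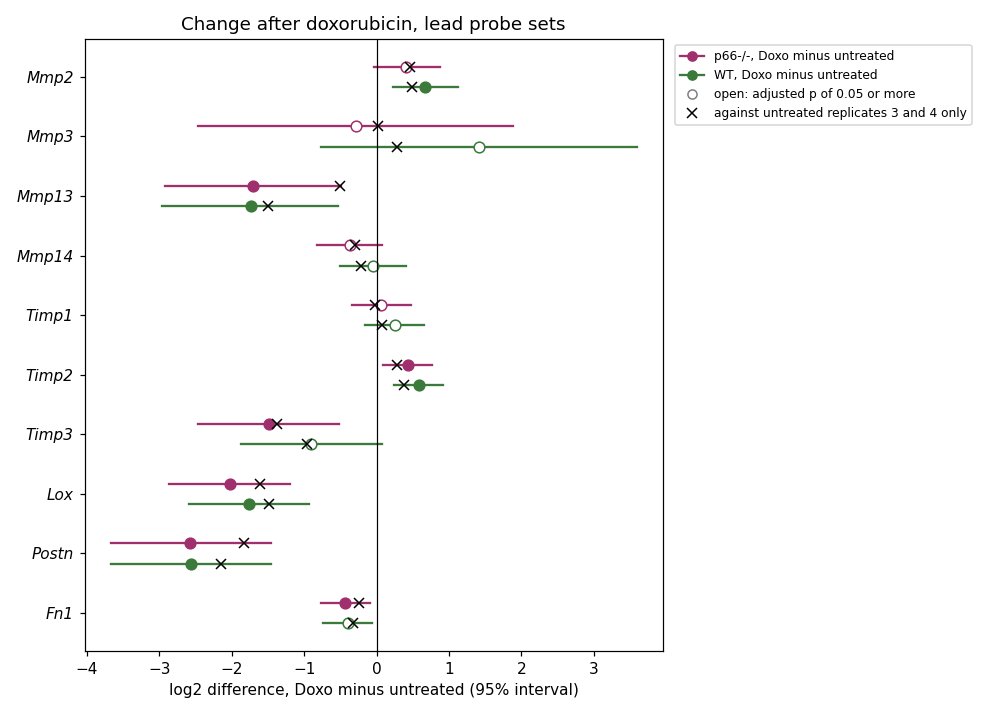
Log2 difference, Doxo minus untreated (horizontal axis), of the lead probe set of 10 genes in p66-/- cells (upper of each pair) and WT cells (lower); points are differences of group means, lines 95% intervals from limma, filled points have an adjusted p under 0.05 and crosses use untreated replicates 3 and 4 alone. Postn and Lox lie furthest left in both genotypes, with crosses at -1.83 and -2.15 for Postn and -1.61 and -1.49 for Lox.

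**Figure D4:**
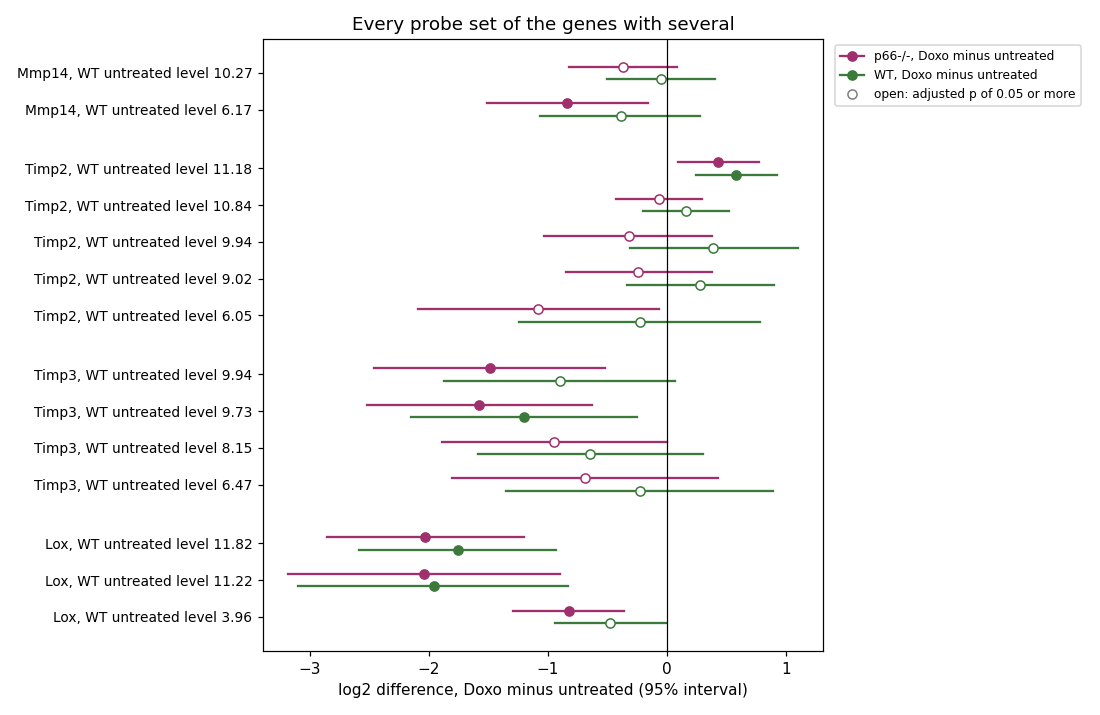
Log2 difference, Doxo minus untreated, with 95% intervals (horizontal axis), for every probe set of the 4 genes that have several, ordered within a gene by their level in untreated WT cells (printed at the left). All 3 Lox and all 4 Timp3 probe sets lie left of 0 in both genotypes, while those of Timp2 lie on both sides.

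The response of p66-/- cells to Doxo was not distinguished from that of WT cells for any member. The difference between the 2 responses had an adjusted p of 1 for all 10 genes and an unadjusted p under 0.05 for none, and 0% of all probe sets passed (1077 at an unadjusted p under 0.05). It was 0.00 for Postn (95% interval -1.57 to 1.56) and -0.27 for Lox (-1.44 to 0.90), so that differences of more than 2-fold in response remain within the intervals. Timp3 and Fn1 in p66-/- cells alone, and Mmp2 in WT cells alone, were not shown to depend on genotype.

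The Doxo results also rest on which untreated arrays they are set against, because untreated replicates 1 and 2 and replicates 3 and 4 differed. Against replicates 3 and 4 alone, Postn differed by -1.83 in p66-/- cells (adjusted p = 0.027) and by -2.15 in WT cells (adjusted p = 0.0095). Lox differed by -1.61 (adjusted p = 0.018) and by -1.49 (adjusted p = 0.024) in the same 2 genotypes. Timp3 in p66-/- cells (-1.38, adjusted p = 0.042) and Mmp13 in WT cells (adjusted p = 0.011) also passed. Mmp13 in p66-/- cells was then -0.51 (adjusted p = 0.38), and Mmp2, Timp2 and Fn1 did not pass in either genotype. Mmp3 in WT cells was 2.54 above untreated replicates 1 and 2 but 0.28 above replicates 3 and 4. The 3′ minus 5′ signal of actin, a sign of RNA quality, was 0.16 to 0.23 on Doxo arrays and 0.14 to 0.49 on the others.

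Much of the variance of these genes went with the replicate number, which covers both the preparation and the array set. The replicate number has more levels than the treatment label, so it takes a larger share even without an effect. Over the 24 arrays without Doxo, the replicate number within a genotype took 41.3% (Mmp14) to 79.8% (Timp1) of the variance of each member. The median over all probe sets was 47.7%, and Mmp14 and Mmp13 (47.1%) lay below it. The treatment label within a genotype took 1.12% (Mmp3) to 18% (Timp2), with a median over all probe sets of 11.6%. Lox separated the 2 array sets. It read 10.51 to 11.58 on the 12 arrays of replicates 3 and 4 and 11.71 to 12.43 on the 12 arrays of replicates 1 and 2. The difference was -0.80, with -0.81, -0.81 and -0.79 in p53-/-, p66-/- and WT cells. Of all probe sets, 95.2% had a smaller difference in either direction, and how many also separate the 2 sets was not counted. The same difference was -0.81 for Postn, -0.29 for Fn1 and 0.26 for Timp2. For Postn it was uneven, at -0.19, -1.17 and -1.06 in p53-/-, p66-/- and WT cells. Whether this belongs to the cells or to the arrays was not tested.

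Mmp3 was the member that varied most. It ranged between 3.76, on p53-/- replicate 2 labelled H2O2, and 9.01, on WT H2O2 replicate 3. By genotype, the values were 5.81, 3.76, 7.42 and 5.48 on p53-/- arrays labelled H2O2 and 6.35, 4.09, 7.83 and 5.70 on those labelled untreated, so that each preparation kept its place under both labels. In WT cells they were 5.62, 4.76, 9.01 and 7.66 after H2O2 and 5.77, 5.08, 8.23 and 7.15 untreated. In p66-/- cells the 8 arrays lay between 6.85 and 7.89. Mmp3 in replicates 3 and 4 was above replicates 1 and 2 by 2.71 in WT cells and 1.60 in p53-/- cells, and below by 0.63 in p66-/- cells.

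Macrophage markers moved with Mmp3. Of 10 listed, 9 were measured (Ptprc, Cd68, Csf1r, Adgre1, Lyz2, Itgam, Cd14, Fcgr1 and Aif1), and their mean per array was 4.39 to 6.21 in p53-/- cells, 5.35 to 6.22 in p66-/- cells and 4.78 to 6.32 in WT cells. Lyz2, the lysozyme of macrophages, ranged between 5.13 and 11.02, and Cd68 between 4.54 and 7.52, while Itgam stayed between 2.87 and 3.59. The correlation of Mmp3 with the mean of the 9 markers was r = 0.75 over the 28 arrays, 0.70 within replicates 1 and 2 and 0.48 within replicates 3 and 4. For Mmp13 it was 0.00 over all arrays, 0.59 and 0.65 within the 2 sets. Of the inhibitors, Timp2 was at 0.64 over all arrays (0.30 and 0.42 within the sets) and Timp1 at 0.60 (0.36 and 0.52). Timp3 was at -0.22 (0.23 and -0.48). Lox, Postn and Fn1 were at 0.74, 0.71 and 0.68 within replicates 1 and 2. Within replicates 3 and 4 they were at -0.49, -0.63 and -0.27, so that the sign changed between the sets. The points share preparations and arrays, and these values are a description. The part of macrophages in the levels of these genes, and in the Timp2 difference after Doxo, was not tested. After Doxo the marker mean was 6.22 and 6.07 in p66-/- cells against 5.57 to 6.13 untreated, and 6.23 and 5.88 in WT cells against 4.78 to 6.09 untreated.

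**Figure D5:**
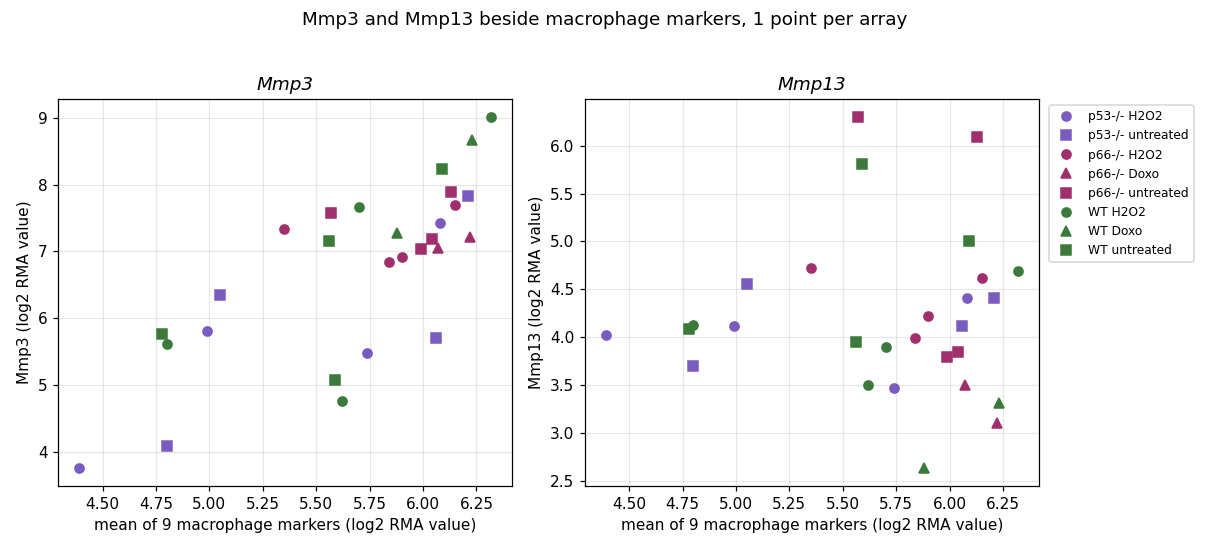
Log2 RMA value of Mmp3 and of Mmp13 (vertical axes) against the mean of 9 macrophage markers (horizontal axes), 1 point for each of 28 arrays; colours are genotypes and shapes treatment labels. Mmp3 is high where the markers are high (r = 0.75), and the 4 Doxo arrays, at 2.63 to 3.50 for Mmp13, lie at the right and the bottom of that panel. p53-/- arrays are shown as labelled.

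Genotype itself moved none of the members past the threshold. In untreated cells as labelled, 0 of 10 genes passed between p53-/- and WT cells, where 4.75% of probe sets did, and 0 between p66-/- and WT cells, where 0% did (593 at an unadjusted p under 0.05). Averaged over H2O2 and untreated arrays, a comparison that exchanging the p53-/- labels cannot alter, 0 passed in p53-/- cells (background 1.04%) and 0 in p66-/- cells (background 0.00444%). Mmp14 was the 1 member with an unadjusted p under 0.05 there, higher by 0.31 in p66-/- cells (95% interval 0.05 to 0.57, adjusted p = 0.51). Lox read 11.78, 11.87, 11.15 and 10.51 on p53-/- arrays labelled untreated, against 11.90, 12.28, 11.54 and 11.56 on untreated WT arrays. It differed by -0.49 with an adjusted p of 0.51. A block for the replicate number brought the adjusted p to 0.045, and a block for the array set brought it to 0.043. Across genotypes a shared number joins arrays of different preparations, so the replicate block makes no matched comparison. The other 2 Lox probe sets also passed with the replicate block (-0.38, adjusted p = 0.034, and -0.49, adjusted p = 0.02). In the averaged comparison with that block, these 2 passed (-0.35, adjusted p = 0.015, and -0.47, adjusted p = 0.0063) and the lead did not (-0.36, adjusted p = 0.064). Without a block, none of the 3 passed in either comparison. With the p53-/- labels exchanged and no block the difference at the lead was -0.36 (adjusted p = 0.94). Timp3 in untreated p66-/- cells was 0.49 above WT cells (95% interval -0.30 to 1.29), with p66-/- replicate 1 at 11.59 far above the other 3.

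In the order of the 8 group means, the Doxo groups stood apart from all others for 2 genes. For Postn and Lox the 2 Doxo groups came last, below a gap without overlap, and the 6 other groups overlapped their neighbours, between 11.47 ± 0.49 and 12.13 ± 0.51 for Postn and between 11.33 ± 0.63 and 11.98 ± 0.48 for Lox (SD, n = 4 each). For Timp2 the 2 Doxo groups came first (11.76 ± 0.10 and 11.70 ± 0.08, SD, n = 2 each) with no overlap to the next group in the order. They did overlap the WT H2O2 group, whose replicate 3 (11.68) lay above the lowest Doxo array (11.64). For the other 7 genes every group overlapped its neighbour in the order. Mmp2 ran between 9.48 ± 0.26 in WT Doxo cells (SD, n = 2) and 8.81 ± 0.36 in untreated WT cells (SD, n = 4), and Mmp3 between 7.97 ± 0.99 in WT Doxo cells (SD, n = 2) and a mean of 5.62 on p53-/- arrays labelled H2O2, which spanned 3.76 to 7.42. Mmp14 ran between 10.47 ± 0.32 in p66-/- H2O2 cells and 9.98 ± 0.20 on p53-/- arrays labelled untreated (SD, n = 4 each), a narrow span for a gene in which genotype took 29.9% of the variance without Doxo. Timp1 had the narrowest span, between 12.42 ± 0.02 in p66-/- Doxo cells (SD, n = 2) and 12.07 ± 0.28 on p53-/- arrays labelled H2O2 (SD, n = 4).

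Postn, Lox and Fn1 varied together over the 28 arrays (r = 0.91 for Lox and Postn, 0.85 for Lox and Fn1, 0.78 for Postn and Fn1), at 0.77, 0.83 and 0.69 over the 24 arrays without Doxo, and at 0.30 to 0.63 within either array set. Timp2 ran against Lox over all arrays (r = -0.80) but not within replicates 1 and 2 (0.14; -0.46 within replicates 3 and 4). Mmp2 and Mmp14, whose proteins act together, correlated at -0.31. Among all genes, those most like Lox were Trpm7, Cdh11 and Csgalnact2 (r = 0.97 each over 28 arrays), and those most like Postn were Efr3a, Tmed7 and the collagen receptor Ddr2 (0.96 each). Most like Timp2 were Slc48a1 (0.96), Abhd14b (0.95) and Abhd14a (0.93), and most like Fn1 was Cacna2d1 (0.93). Mmp13 was most like Slc2a13 and the leukocyte gene Ptprc (0.74 each), Timp3 most like Phactr2 (0.84), and Mmp2 most like Sft2d2 (0.83). All of these share libraries and the contrast between Doxo and other arrays.

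Genes of the same families were listed apart from the members. After H2O2, 4.56% of all probe sets passed in p53-/- cells, 0.0178% in p66-/- cells and 3.66% in WT cells. After H2O2 in WT cells the list of 16 measured matricellular genes had 2 falls, Ccn1 (by 2.37, adjusted p = 0.00024) and Ccn2 (by 1.04, adjusted p = 0.03), both secreted CCN proteins that bind integrins. In p53-/- cells as labelled both rose, by 2.64 and 1.21, which is a fall of those sizes with the labels exchanged. Adamts1, a secreted protease that cuts proteoglycans, fell by 1.75 in WT cells (adjusted p = 0.011) as 1 of 14 ADAMTS genes. Itga5 and Vcl fell in WT cells among 12 genes of fibronectin receptors and their adhesions. Itga5 read 3.95 after H2O2 against 5.08 untreated, on both sides of the array medians of 4.35 to 4.46, so its fall rests on weak signals. In p53-/- cells as labelled Itga5 rose by 1.25 (adjusted p = 0.008), which is a fall with the labels exchanged. None of the 14 other metalloproteinases, 8 other protease inhibitors, 11 crosslinking enzymes or 19 fibrillar matrix genes passed after H2O2 in any of the 3 genotypes. With shares this low, lists of this size without a call lie near the background.

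After Doxo 32.6% of all genes rose and 16.5% fell in p66-/- cells, and 27% rose and 16.1% fell in WT cells, and several of the list counts lie near these shares. Of 14 other metalloproteinases 6 rose and 1 fell in p66-/- cells, and 4 rose and none fell in WT cells, with Mmp11 higher by 1.41 and 1.24, Mmp17 by 1.18 and 0.95 and Mmp24 by 0.56 and 0.50. Of 14 ADAMTS proteases 2 rose and 5 fell in each genotype, with Adamts16 at 0.95 and 0.56 in p66-/- and WT cells, Adamts1 at -2.70 and -3.26, Adamts12 at -2.00 and -1.89 and Adamts7 at 0.92 and 0.86. Of 12 fibronectin receptor genes 1 rose and 6 fell in p66-/- cells, and 6 fell in WT cells. Itgb1, the β chain of the main fibronectin receptor, differed by -1.76 and -1.60, Fermt2, an integrin activator, by -1.81 and -1.74 and Vcl (vinculin) by -1.04 and -0.73. The matricellular list had 1 rise and 3 falls of 16 in p66-/- cells and 3 falls in WT cells, which were Ccn2 (-3.55 and -3.34), Ccn4 (-2.28 and -2.12) and Ccn1 (-2.43 and -1.92). Of 11 crosslinking enzymes other than Lox 4 rose in p66-/- cells and 2 in WT cells, and none fell. Plod3, a lysyl hydroxylase, was higher by 0.55 and 0.45, and Loxl4, of the same family as Lox, by 0.80 and 0.64. Of 8 other inhibitors, Pcolce and Pzp rose in both genotypes and Reck fell in p66-/- cells. Of 19 fibrillar genes 1 rose and 2 fell in p66-/- cells, which were Fbln1 (0.84), Vcan (-2.86) and Ltbp1 (-0.76), and 1 fell in WT cells, the proteoglycan gene Vcan (-2.63).

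The medians of these lists after Doxo were 0.55 and 0.42 for the crosslinking enzymes in p66-/- and WT cells, -0.29 and -0.27 for the ADAMTS proteases, and -1.11 and -0.74 for the fibronectin receptors, against 0.152 and 0.134 over all probe sets. They were 0.22 and 0.23 for the other metalloproteinases and 0.29 and 0.26 for the other inhibitors. For the matricellular genes they were -0.14 and -0.07, and for the fibrillar genes 0.07 and -0.03. Here too Doxo and its array set cannot be told apart.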

How the data were processed

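RNA of 28 cultures of mouse embryonic fibroblasts was labelled with biotin and hybridized by the authors to Affymetrix MG-430 PM array strips, read mostly near the 3′ end of a transcript. The deposited values are log2 signals that the authors made with RMA (Partek 6.5, per the labels), over 45141 probe sets. Of these, 104 control probe sets were left out and 45037 tested. A single gene symbol was given for 28898, several for 551 and none for 15588, and 17097 genes were named. Arrays carry no read depth, so precision depends on how many there are.

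One model with 8 group means was fitted to the 28 arrays in limma 3.58.1 (R 4.3.3). Its 12 comparisons set H2O2 or Doxo against no treatment within a genotype, each mutant against WT cells, and the responses of mutants against those of WT cells through interaction terms. Rises and falls are those under 0.05 after Benjamini-Hochberg adjustment over all probe sets. All 10 members were named, at the probe set of highest mean, with the other probe sets by range; of each related list, up to 3 called genes of lowest adjusted p in a comparison, with their value in the other genotype. The members and lists were chosen with earlier results of these data known, and the study's thresholds (unadjusted p under 0.05 and 1.5-fold) were an alternative.

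The replicates are independent preparations per the study, and p-values measure the spread between them. Whether replicate numbers pair arrays was checked on deviations from group means: they correlated at 0.51 to 0.75 in the 12 H2O2 pairs, 10 of which correlated best with their own number, and at -0.08 to 0.05 in the 4 Doxo pairs. The H2O2 and untreated arrays of a number therefore come as pairs, the Doxo arrays not. Printed p-values and intervals are nonetheless from the unpaired model, which counts the 2 arrays of a preparation as independent. The fit with the replicate number as a block is an alternative. Its block gives a number the same effect in all genotypes, so it does not pair arrays within a genotype. Promoters are from RefSeq windows of 250 bases before to 50 after a start.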

Additional observations from a re-analysis of the deposited data

How the results depend on the processing

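Counts of members past the threshold are out of 10. After Doxo in p66-/- cells the count was 6, and it was 3 when only the compared groups were fitted and 3 with untreated replicates 3 and 4 as the comparison. In WT cells it was 5, and it was 8 with the replicate number as a block, where Mmp3, Timp1 and Fn1 were added, and 3 with untreated replicates 3 and 4. The Doxo numbers do not pair arrays, so that block joins arrays by number only. Fitting only the compared groups added Mmp2 in p66-/- cells (0.41, adjusted p = 0.031). In WT cells that fit added Timp3 (-0.90, adjusted p = 0.029) and Fn1 (-0.40, adjusted p = 0.042). The mean of all probe sets of a gene added Mmp14 in p66-/- cells (-0.60, adjusted p = 0.041) and Fn1 in WT cells (-0.40, adjusted p = 0.047). Leaving out 1 array at a time gave 2 to 6 in p66-/- cells and 3 to 6 in WT cells. Between p53-/- and untreated WT cells the count was 0, and 1 (Lox) with the replicate block and 1 with the array set as a block. For the H2O2 response of p53-/- against WT cells it was 0, and 1 (Timp2) with replicates 3 and 4 alone, and 0 to 1 on leaving out 1 array. The replicate block changed no other count. Timp2 after Doxo in p66-/- cells turned to -0.26 (adjusted p = 0.36) as the mean of its probe sets. Timp2 in both genotypes and Fn1 did not reach the 1.5-fold of the study's thresholds. Using untreated replicates 1 and 2 or 3 and 4 as the comparison, and leaving out the p53-/- arrays, were chosen after seeing the data. The cause of these changes was not tested, beyond the smaller number of arrays in the fits that left some out.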
